A study of Homo sapiens with 7 samples.

Results

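HOXB13, a homeodomain protein that marks cells of the prostate, is a transcription factor that binds DNA together with cofactors such as MEIS proteins and with the androgen receptor. Acetylation adds an acetyl group to a lysine of the protein, and an antibody against HOXB13 acetylated at lysine 13 (HOXB13-K13ac) can therefore show where this modified form sits on chromatin. The title of the series places it in a super-enhancer network of tyrosine kinase genes. In chromatin immunoprecipitation sequencing (ChIP-seq), DNA bound by the antibody is sequenced and a peak caller reports stretches where reads pile up above a control.

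The regions described here are the peaks of 1 deposited HOXB13-K13ac list that were absent from the lists of every labelled HOXB13-K13ac library. That list was called against input, which is sheared chromatin without precipitation. Its name carries the antibody and a suffix that no library has, so it is called the unassigned list, and which library or libraries it came from was not settled from the labels. Of its 36205 peaks, 1703 (4.70%, exact 95% binomial interval 4.49 to 4.93) shared no base with any peak of replicate 1, replicate 2 against input or replicate 3 against input. These are called unassigned-only peaks. They were thus chosen by the positions of called peaks in all 4 lists, and so also by the strength that let a peak be called. The 6 deposited lists held 148463 peaks in all.

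All libraries came from C4-2B, an established castration-resistant prostate cancer line derived from LNCaP, grown without further treatment in medium with charcoal-stripped serum, which is low in steroid hormones. They comprise 3 HOXB13-K13ac precipitations, 2 with a non-specific IgG and 2 inputs, and no other line, genotype or treatment is among them. The title of replicate 1 starts with the number 2898 and those of replicates 2 and 3 with 3047, and the labels do not say what these numbers stand for. The lists give no read counts, so depth is unknown, and nothing in the labels says whether replicates were separate cultures. For replicate 1 the list does not name its control. Its assignment to a library and that of replicate 3 rest on 1 punctuation character in the names. With 1 list and no repeat of it, no test between conditions was possible, and intervals cover counting error only. Neighbouring peaks are not independent, so those intervals are too narrow.

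The 1703 peaks were what remained after overlaps that were dominated by replicates 1 and 2. Of the unassigned list, 22448 peaks (62.0%) shared sequence with replicates 1 and 2 but not 3, and 4676 (12.9%) with all 3 replicates. A further 5636 (15.6%) shared sequence with replicate 2 alone, 971 (2.68%) with replicate 3 alone and 497 (1.37%) with replicate 1 alone. Pairs of replicate 3 with replicate 1 or with replicate 2 only accounted for 138 and 136 peaks. Replicate 2 therefore set the count more than the others. Without the replicate 2 list 7339 peaks would have qualified, without replicate 3 2674 and without replicate 1 2200.

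Because the rule turns on overlap, and strong and wide peaks are likelier to overlap another list, the strength and width of the unassigned-only peaks are given as a description with no test. They were weak and narrow. Fold enrichment is the authors' ratio of signal at the summit to the local background of the control. Its median was 4.08 in the unassigned-only peaks (interquartile range 3.67 to 4.60) and 6.57 in the other 34502 peaks of the list (4.95 to 10.17). The highest unassigned-only value was 7.29, and 43.4% of the other peaks exceeded it. Median width was 294 bp in the unassigned-only peaks (247 to 370) and 608 bp in the others (413 to 926). No unassigned-only peak was wider than 909 bp, whereas the widest of the others measured 9511 bp. Together the unassigned-only peaks covered 0.543 Mb and the others 26.2 Mb.

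**Figure D1:**
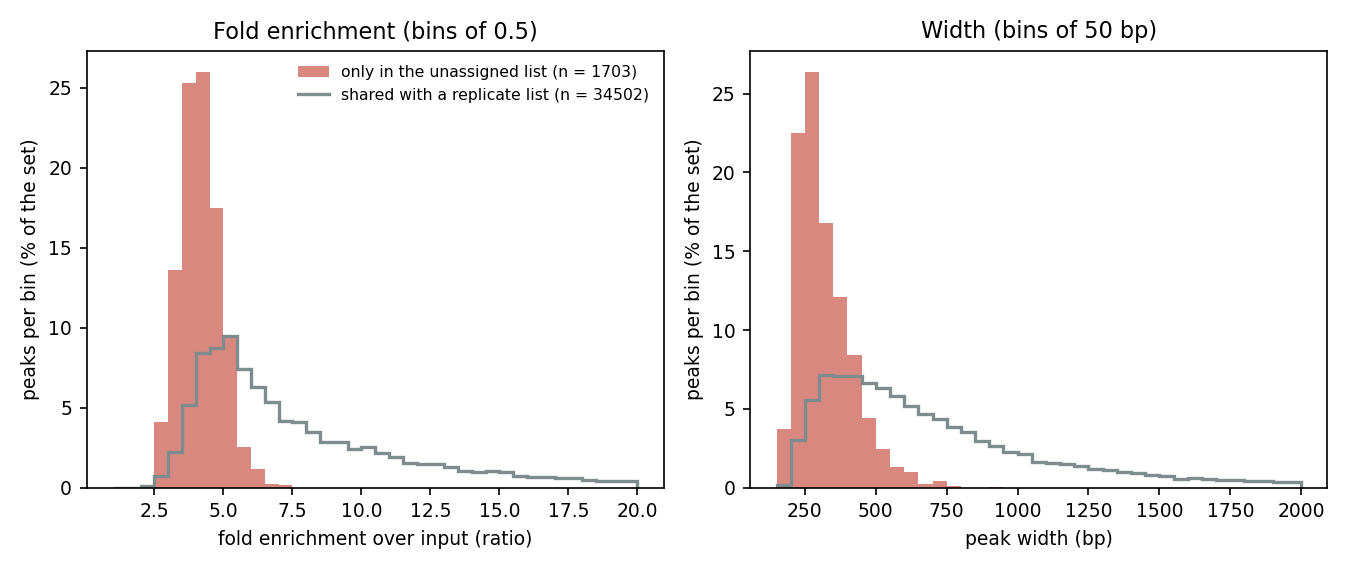
Fold enrichment over input (left) and peak width in bp (right), as the percentage of each set of peaks per bin, for peaks only in the unassigned list (filled) and for peaks of that list shared with a replicate list (line). The filled distributions are narrow, with medians of 4.08 and 294 bp, and the lines have long tails to the right, with medians of 6.57 and 608 bp; values above 20 and above 2000 bp are not drawn.

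Nearly all peaks of the list passed a common significance threshold, and the unassigned-only peaks did so slightly less often. A q is a p adjusted for the number of places tested, and 1662 unassigned-only peaks (97.6%) had a q of 0.05 or less, beside 99.8% of the others and 99.7% of the whole list. Under the stricter limit of a −log10 q of 5 or more there were 191 unassigned-only peaks (11.2%, 9.76 to 12.8) and 75.8% of the others, against 72.7% of the whole list. The median −log10 q was 3.26 in the unassigned-only peaks (interquartile range 2.53 to 4.13) and 9.18 in the others (5.03 to 19.74). The authors numbered peaks by p, the strongest first, and numbers ran up to 116800. The first unassigned-only peak had number 11509, and 11479 other peaks came before it. Among the peaks numbered up to 25000 that were in the list, 0.361% were unassigned-only, and among those numbered 100001 or more 32.8% were.

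Ordered by −log10 q and cut into 10 equal parts, the list lost its unassigned-only peaks steadily with strength. They made up 23.7% of the weakest part (22.3 to 25.1), 12.2% of the next and 7.54% of the one after. In the fifth part the share was 0.911%, and in the seventh a single peak remained. The strongest 3 parts, of 3620 or 3621 peaks each, held 0, which allows a share of up to 0.0829% in each, taking 3 peaks as the limit that a count of 0 allows here and in the results that follow.

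**Figure D2:**
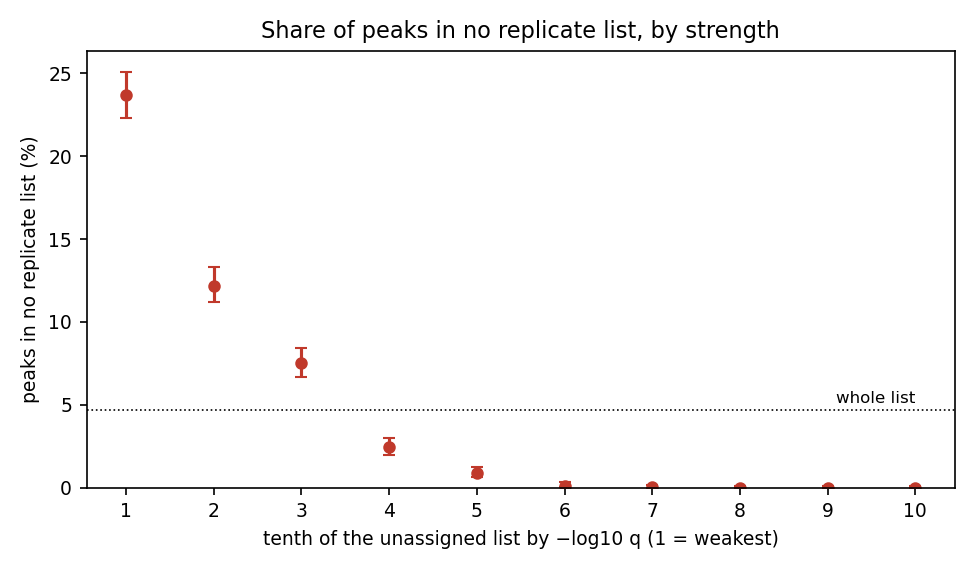
Percentage of peaks of the unassigned list that were in no replicate list, for 10 equal parts of the list from the lowest to the highest −log10 q. Points are shares, bars exact 95% binomial intervals (up to 0.102% in the parts with none) and the dotted line the share of the whole list, 4.70%; the share is 23.7% in the weakest part and 0 in the strongest 3.

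Width and strength moved together, so the share was also read within weak peaks alone. Among peaks with a −log10 q under 5, 1512 were unassigned-only and 8361 were shared. Their median fold enrichments lay close together, at 4.01 for the unassigned-only peaks and 4.23 for the shared ones. Strength was still not matched, since the median −log10 q was 3.03 (interquartile range 2.39 to 3.79) in the unassigned-only peaks. It was 3.59 (2.83 to 4.30) in the shared peaks. Their median widths were 295 bp in the unassigned-only peaks and 404 bp in the shared ones. Of weak peaks up to 250 bp wide, 33.4% were unassigned-only (30.7 to 36.1). The share was 22.4% at 250 to 350 bp, 12.2% at 350 to 500 bp and 4.18% at 500 to 750 bp. Of the 176 weak peaks wider than 1000 bp none were, which allows a share of up to 1.70%. A wide peak has more bases that can meet another peak, so this fall is partly built into the rule.

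Peaks shared with more replicate lists were stronger, and the unassigned-only peaks lay at the lower end of that order. Median fold enrichment in the unassigned list was 4.08 for peaks in no replicate list, 4.36 for those in replicate 1 alone, 4.40 in replicate 3 alone and 4.76 in replicate 2 alone. It was 7.01 for peaks in replicates 1 and 2 and 13.6 for those in all 3. For the 2 small pairs it was 4.96 (replicates 1 and 3, 138 peaks) and 5.28 (replicates 2 and 3, 136 peaks). The values for peaks in a single replicate list were closer to the unassigned-only peaks than to the peaks of replicates 1 and 2. This did not hold for the small pairs, since the value of replicate 2 alone was nearer to both of them than to 4.08.

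The same rule was applied to each of the other lists, so that peaks held by 1 list alone could be set side by side. The unassigned list had the smallest share of such peaks. It was 4.70% in the unassigned list, 21.6% in replicate 1 (8905 peaks), 26.0% in replicate 2 (11740) and 63.7% in replicate 3 (11612). Single-list peaks had a median fold enrichment of 4.08 in the unassigned list, 3.39 in replicate 1, 4.26 in replicate 2 and 4.26 in replicate 3. Their median widths were 294 bp, 348 bp, 379 bp and 222 bp in the same order. The lists hold unequal numbers of peaks, and whether the unassigned list shares reads with a replicate is not given in the labels, so these shares were not tested against each other.

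Unassigned-only peaks had a replicate peak close by in many cases, although they shared no base with it. The distance from edge to edge to the nearest replicate peak had a median of 4746 bp (interquartile range 651 to 18604). It was at most 1 kb for 509 peaks (29.9%, 27.7 to 32.1), between 1 and 10 kb for 572 (33.6%) and over 10 kb for 622 (36.5%, 34.2 to 38.9). Measured from summit to summit, 20.3% lay within 1 kb. Only 53 peaks (3.11%) were more than 100 kb from any replicate peak. The nearest peak belonged to replicate 2 for 896 of the 1703, to replicate 1 for 482 and to replicate 3 for 327, with ties counted for each list. Peaks of replicate 3 were within 1 kb of 57 unassigned-only peaks, those of replicate 1 of 371 and those of replicate 2 of 390. The lists of replicates 1, 2 and 3 held 41303, 45216 and 18232 peaks, so these counts are not on 1 scale.

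**Figure D3:**
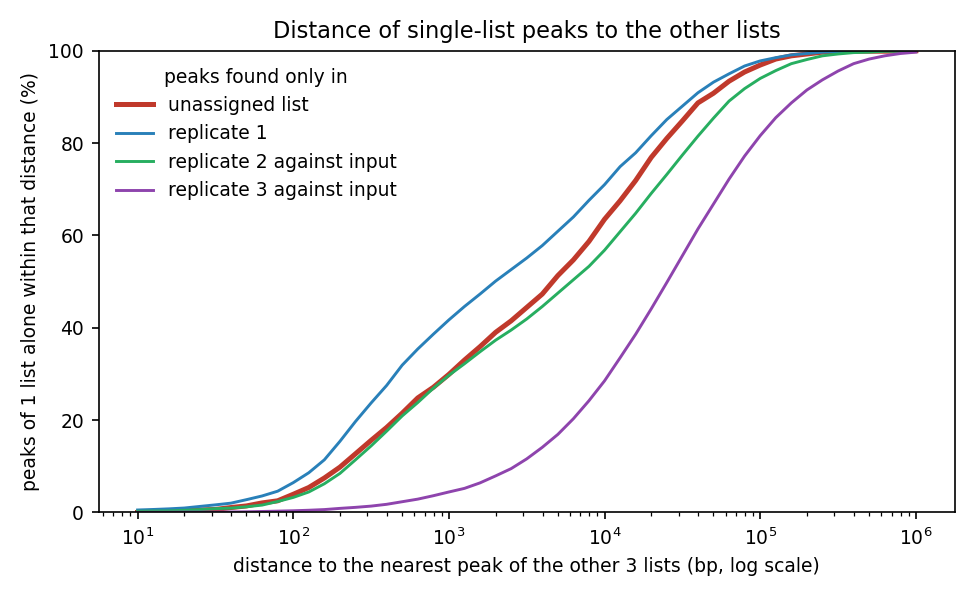
Cumulative percentage of single-list peaks that lay within a given distance (bp, log scale) of the nearest peak of the other 3 lists, for each of the 4 lists. At 1 kb the curve of the unassigned list stands at 29.9%, close to replicate 2 at 29.7%, below replicate 1 at 41.7% and above replicate 3 at 4.43%.

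Near and distant unassigned-only peaks had similar medians of strength and width. Median fold enrichment was 4.14 within 1 kb of a replicate peak, 4.09 at 1 to 10 kb and 4.01 beyond 10 kb. Median widths were 301 bp, 286 bp and 295 bp. Of the 191 peaks at a −log10 q of 5 or more, 38.7% (31.8 to 46.0) lay within 1 kb of a replicate peak, and of the 1512 weaker ones 28.8% (26.5 to 31.1). Among the 456 unassigned-only peaks with replicate peaks within 1 kb on 1 side only, the summit leaned to that side in 222 (48.7%, 44.0 to 53.4). Another 53 lay between replicate peaks that were within 1 kb on both sides.

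The replicate peaks next to unassigned-only peaks had fold enrichments near those of the rest of their lists. In replicate 2, 439 peaks lay within 1 kb of an unassigned-only peak, with a median fold enrichment of 6.70 and 6.48 in the rest of that list. In replicate 1 there were 429, with medians of 4.21 beside them and 4.68 elsewhere. In replicate 3 the 58 such peaks had a median of 4.57, and the rest 4.40. Within the unassigned list itself, 282 unassigned-only peaks (16.6%) lay within 1 kb of a shared peak of the same list and 743 (43.6%) within 10 kb.

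Neighbouring unassigned-only peaks were counted without comparison to a random scatter of the same number. With a limit of 10 kb, 82 of the 1703 peaks (4.82%, 3.85 to 5.94) had another such peak nearby, in 41 runs of exactly 2. By the same limit, single-list peaks had another one nearby in 31.9% of cases for replicate 1, 25.3% for replicate 2 and 13.8% for replicate 3. The lists hold unequal numbers of single-list peaks, so the values are given side by side only. The run with the highest summed enrichment lay on chromosome 4, where peaks at 54130545 to 54130980 and 54139826 to 54140262 had fold enrichments of 5.01 and 7.10. On chromosome 10, peaks at 43901281 to 43901680 and 43902260 to 43902510 were 579 bp apart, with values of 5.91 and 5.19. The remaining 3 named runs were on chromosome 5 (126140858 to 126151263), chromosome 9 (33924148 to 33926535) and chromosome 14 (69404385 to 69405344). Coordinates are given on hg19, counted from 1. No sequence or annotation of that build was used here, so regions are named by position, and their genes, sequences and motifs were not analysed.

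Among the 10 unassigned-only peaks with the highest fold enrichment, 6 lay within 1 kb of a replicate peak and 3 lay more than 10 kb away. The highest, on chromosome 10 (82587782 to 82588079), reached a fold enrichment of 7.29 at a −log10 q of 9.47. It was isolated, with its nearest replicate peak 212 kb away. The next was the chromosome 4 peak of the run above, from 54139826 to 54140262, with a −log10 q of 9.94. Replicate 2 had a peak 236 bp from it and replicate 1 a peak 415 bp from it. On chromosome X, the peak from 152127745 to 152128024 was enriched 7.01-fold, with a replicate 2 peak 186 bp away. On chromosome 16, the peak from 31416217 to 31416524 reached 6.96, with peaks of replicates 1 and 2 both 242 bp away. On chromosome 1, the peak from 145396575 to 145396804 reached 6.71, with a replicate 1 peak 191 bp away.

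The other 5 of the 10 ranged in fold enrichment between 6.43 and 6.51. A peak on chromosome 2 (36877002 to 36877297) and one on chromosome X (71346658 to 71346911) had the same fold enrichment, 6.51, and the same −log10 q, 7.59. Their nearest replicate peaks were 51.8 kb and 4.29 kb away. A peak on chromosome 6 (52795426 to 52795720) reached 6.48 and one on chromosome 3 (186696142 to 186696474) 6.43, both within 400 bp of a replicate 2 peak. The last, on chromosome 10 (20394530 to 20394841), reached 6.47 and was 100314 bp from any replicate peak. The strongest by q was not among the 10. It lay on chromosome 12 (69742178 to 69742416), where the −log10 q was 14.94 and the fold enrichment 5.25, and a replicate 2 peak was 2872 bp away.

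The most remote unassigned-only peak, on chromosome 6 from 67189555 to 67189864, was 852 kb from the nearest replicate peak. Its fold enrichment of 4.01 was near the median. At the edge of the rule, the closest unassigned-only peaks were 11, 11 and 14 bp from a replicate peak. They lay on chromosome 20 (48645704 to 48646082), chromosome 6 (131579940 to 131580246) and chromosome 20 (50159271 to 50159502), with fold enrichments of 4.41, 3.65 and 3.97. The shared peaks with the fewest shared bases had 8, 28 and 28, each with a replicate 1 peak, on chromosomes 1, 8 and 17. Their fold enrichments were 4.17, 4.44 and 3.49. Fold enrichments on either side of the edge lay in the same range, and 24 unassigned-only peaks were within 50 bp of it.

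Chromosomes were not used by the rule, and unassigned-only peaks were spread unevenly over them. As a share of the unassigned list's own peaks on a chromosome, they ranged between 1.36% and 7.0% over the 23 chromosomes other than Y. Chromosome 5 had the highest share, with 128 of 1828 peaks (7.0%, 5.87 to 8.27). Chromosome 3 followed with 165 of 2533 (6.51%, 5.58 to 7.55) and chromosome 7 with 98 of 1625 (6.03%, 4.92 to 7.30). The lowest share was that of chromosome X, with 11 of 810 peaks (1.36%, 0.680 to 2.42). Chromosome 21 had 9 of 483 (1.86%, 0.855 to 3.51) and chromosome 4 had 34 of 1287 (2.64%, 1.84 to 3.67). Chromosome Y held 3 peaks of the list, none of them unassigned-only. The intervals of chromosomes 3, 5 and 7 lay above those of 4, 21 and X without overlap. These chromosomes were picked out after their values were seen, and no test was made.

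The spread over chromosomes was also seen when strong peaks were left out, a comparison chosen after seeing the data. Among peaks with a −log10 q under 5, where 15.3% were unassigned-only, the share was 19.9% on chromosome 5 (16.7 to 23.5), 19.6% on chromosome 3 (16.9 to 22.6) and 18.1% on chromosome 7. It was 4.55% on chromosome X (7 of 154, 1.85 to 9.14), 7.02% on chromosome 21 and 9.46% on chromosome 4. Chromosome X stayed lowest of the 23 without replicate 1 (2.22%), without replicate 3 (1.73%) and when replicate peaks within 1000 bp also disqualified a peak (0.988%). Chromosome 5 stayed highest in the same 3 settings, at 8.48%, 10.4% and 5.25%. These settings only add peaks to the main set or take some away, so they are not independent of it. Without replicate 2, where 20.3% of the list qualified, chromosome X ranked 22 of 23 at 14.1% and chromosome 5 ranked 4 at 24.0%. Without replicate 2 the share on chromosome 4, 20.1%, was near that of the whole list.

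Single-list peaks of the other lists were spread differently. The highest share over the 23 chromosomes was 5.16 times the lowest in the unassigned list, 1.75 times in replicate 1, 2.89 times in replicate 2 and 1.57 times in replicate 3. These ratios are not on 1 scale, since the whole-list shares were 4.70%, 21.6%, 26.0% and 63.7%, and a high share leaves little room above it. The lowest share of the unassigned list also rests on few peaks, 11 of 810. In those 3 lists chromosome 19 had the lowest share, at 14.8%, 11.6% and 46.6%. In the unassigned list its share was 3.02%, above those of chromosomes 4, 21 and X. On chromosome X, single-list peaks made up 1.36% of the unassigned list, 19.2% of replicate 1, 31.3% of replicate 2 and 56.6% of replicate 3. Relative to its whole list, chromosome X was at 0.289 in the unassigned list, 0.891 in replicate 1, 1.20 in replicate 2 and 0.889 in replicate 3. Chromosome 4 was at 0.562, 1.11, 1.29 and 1.07 in the same order. What differs between libraries on these chromosomes was not tested.

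**Figure D4:**
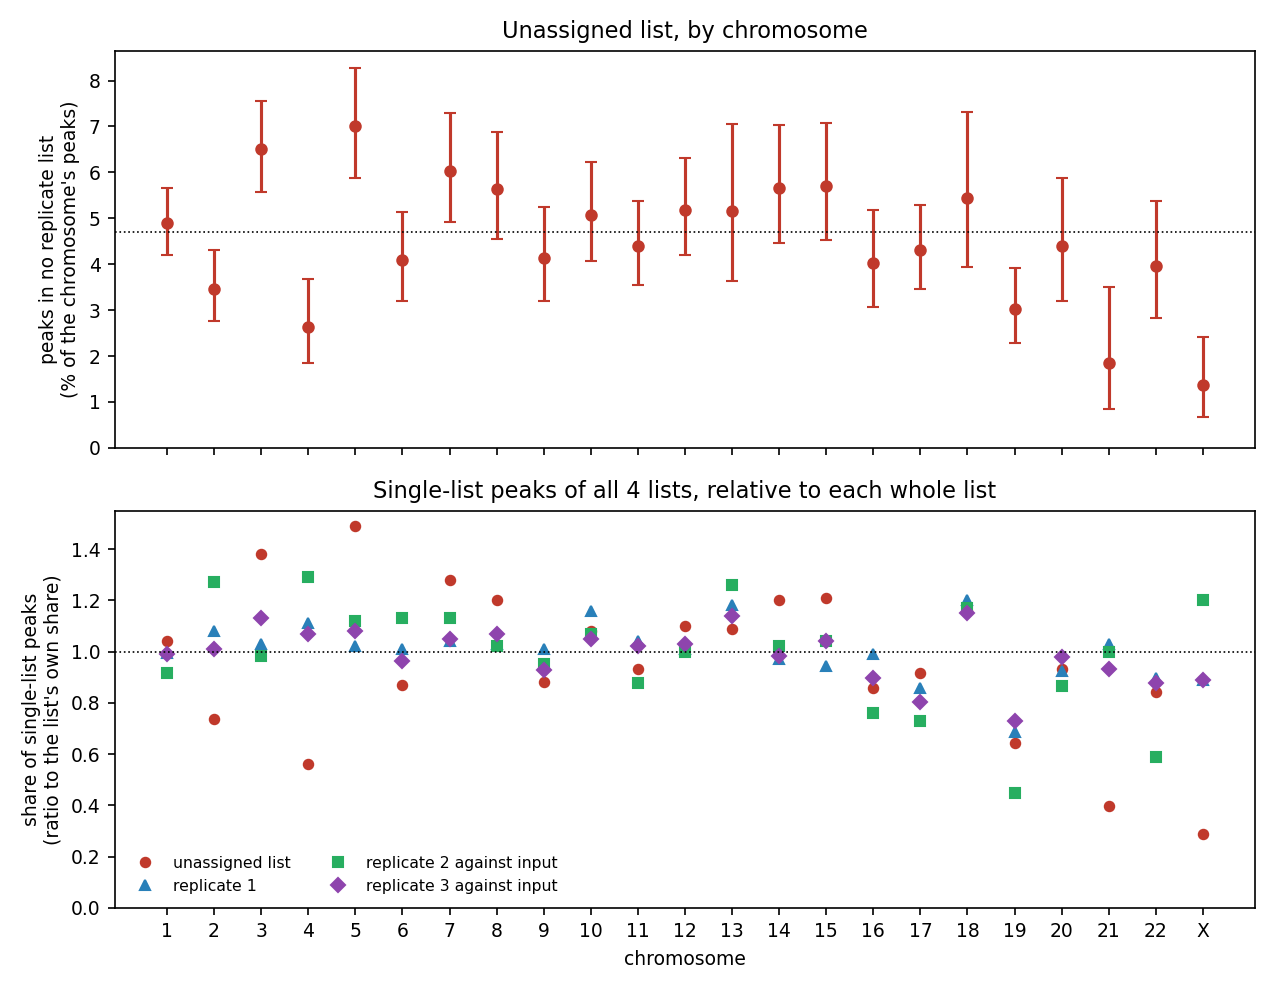
Upper panel, percentage of the unassigned list's peaks on each chromosome that were in no replicate list, with exact 95% binomial intervals and the share of the whole list as a dotted line. Lower panel, the share of single-list peaks on each chromosome divided by that of the whole list, for the 4 lists; the unassigned list runs between 0.289 on chromosome X and 1.49 on chromosome 5, replicate 1 between 0.687 and 1.20, replicate 2 between 0.447 on chromosome 19 and 1.29 on chromosome 4, and replicate 3 between 0.731 and 1.15.

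Densities were taken per megabase of the stretch of each chromosome that lies between its outermost peaks in the 6 lists, which is not the chromosome's length. By this measure there were 1.14 unassigned-only peaks per Mb on chromosome 22, over a stretch of 34.1 Mb (95% Poisson interval 0.814 to 1.56), and 1.07 on chromosome 17, over 81.1 Mb (0.860 to 1.32). A chromosome whose peaks leave out an arm has a short stretch and so a higher value, and these 2 chromosomes were not ranked. Over all chromosomes the value was 0.568 per Mb for the unassigned-only peaks and 11.5 for the others. Chromosome 19 had 0.952 unassigned-only and 30.5 shared peaks of the list per Mb. Chromosome X was lowest of the 23 with 0.0709 (0.0354 to 0.127), beside 5.15 shared peaks per Mb. The 11 peaks on chromosome X had a lowest fold enrichment of 2.93, a median of 5.01 and a highest of 7.01. On chromosome 5 the 128 peaks had a lowest value of 2.59, a median of 4.04 and a highest of 5.77.

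IgG gives the background of a precipitation without a specific antibody, and no unassigned-only peak was found against it. Of the 1703, 0 shared a base with the list of replicate 2 against IgG. Of the other peaks 6650 (19.3%) did, 18.4% of the whole list. The rule largely fixes this 0, because 7505 of the 7506 IgG peaks shared a base with a replicate 2 peak against input. An unassigned-only peak cannot touch such a replicate 2 peak. Whether the IgG peaks lay wholly inside those peaks was not measured. The 2 counts are therefore no measure of enrichment over IgG. Among shared peaks with a −log10 q under 5, only 2 of 8361 were found against IgG. Peaks of that IgG list lay within 1 kb of 34 unassigned-only peaks (2.00%, 1.39 to 2.78). They did so for 9587 of the other peaks (27.8%), a count that includes those sharing a base. The list of replicate 3 against IgG held 1 peak, which met no peak of the unassigned list. No IgG list is named as belonging to the unassigned list, so its enrichment over IgG was not measured here.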

How the data were processed

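ChIP-seq libraries of C4-2B cells were precipitated with an antibody against HOXB13-K13ac or IgG, or sequenced as input. The submitters' processing notes name MACS2, Bowtie2, BWA and CASAVA 1.4, and the builds GRCh37 and hg19. The role of each tool, the threshold for calling, the filter and any pooling are not given in the labels. The deposited lists hold, for each peak, a fold enrichment (a ratio to the control), a −log10 p and −log10 q as the authors' peak caller gave them, and a summit offset (other values, deposited in bp).

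Lists were tied to libraries by the spelling of the labels. Distances, shares and exact intervals were computed with SciPy 1.17.1, pandas 2.3.3 and NumPy 2.4.6 in Python 3.11.15. Peaks were shared from 1 common base, and bedtools 2.31.1 gave the same 1703 peaks. Tested on simulated lists, the code recovered all 1700 peaks placed alone among 36000. Regions named are the 10 with the highest fold enrichment, 5 runs, the most distant and 3 on each side of the edge. The peak with the highest −log10 q was added after its value was seen. The members, lists and rules were chosen with earlier results of these data known. Reference sequence tables on GRCh38 were not used, since the lists are on hg19.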

Additional observations from a re-analysis of the deposited data

How the results depend on the processing

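The number of unassigned-only peaks depends on the overlap rule and on the lists compared. Requiring no replicate peak within 1000 bp gave 3.30% of the list, and within 10000 bp 622 peaks (1.72%). Requiring no replicate summit within 100 bp of the summit gave 6597 (18.2%). With a −log10 q of at least 5 in all 4 lists there were 630 (2.39%), since a strong peak then also counts when it meets only weaker ones. Leaving out 1 replicate list gave between 2200 and 7339 peaks (6.08% to 20.3%). The medians of the peaks so chosen ranged, for unassigned-only and other peaks in turn, between 298 and 365 bp and between 614 and 673 bp in width, between 4.14 and 4.59 and between 6.66 and 7.37 in fold enrichment, and between 3.33 and 4.16 and between 9.47 and 11.5 in −log10 q. The order of the 2 sets was the same whichever replicate list was left out. The rule favours this order, because strong and wide peaks are likelier to overlap another list. Medians under the other overlap rules are not given here. Within 5 kb of another unassigned-only peak were 3.52%, and within 20 kb 6.64%. Within 1 kb of a replicate peak from summit to summit were 20.3%. An IgG peak within 1000 bp was found for 2.00%. Of the planned comparisons, 33 moved beyond 1.5 times the count or outside the interval of the value, and 17 did not. Those 17 include the 2200 peaks without replicate 1 and the width of 298 bp without replicate 3. Densities divided by chromosome length in place of the stretch that holds peaks, gene locations, motifs and base content were not run, because no genome of the lists' build was used. No paired analysis was possible because the results compare peaks of 1 list and come from no test. Read depth is unknown, so whether unassigned-only sites hold reads below the threshold in the replicates was not analysed here.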

Other observations

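Unassigned-only peaks occupied 1093 windows of 1 Mb, of which 696 held a single one, and the most in a window was 6. Whether they were more or less clustered than their number alone would give was not tested. Of the 3 windows with 6, one on chromosome 8 (142000001 to 143000000) held 6 among 24 peaks of the list, one on chromosome 19 (10000001 to 11000000) 6 among 50, and one on chromosome 3 (177000001 to 178000000) 6 among 80. These windows were chosen after their values were seen.

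The authors' values came in repeated steps. The 1703 unassigned-only peaks had 512 distinct combinations of fold enrichment, −log10 p and −log10 q, and 54 of them shared one combination, a fold enrichment of 3.76 with a −log10 q of 2.56. Among peaks with a −log10 q under 5, 88.4% of the unassigned-only peaks (86.7 to 90.0) had exactly the values of another unassigned-only peak. Among the more numerous shared peaks of that strength, 97.7% (97.3 to 98.0) had exactly the values of another shared peak.

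Of the 116800 numbers that the authors' peak numbering spans in the unassigned list, 31.0% were present. The missing numbers lay mostly at the weak end: 24080 of the numbers 1 to 25000 were present, and 122 of those from 100001 up.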
